A study of Mus musculus with 15 samples.

Results

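The genes described here encode transporters of inorganic ions in 8 solute carrier families: the bicarbonate carriers (Slc4a), sodium-calcium exchangers (Slc8a), sodium-hydrogen exchangers (Slc9a), cation-chloride cotransporters (Slc12a), dicarboxylate and sulfate carriers (Slc13a), the 2 phosphate carrier families (Slc20a and Slc34a) and the anion exchangers (Slc26a). The rule takes every gene whose symbol starts with one of these prefixes followed by a number, Slc13a1 left out. This gave 50 of the 19938 genes with a symbol on the array, 47 of them transporters. The other 3 carry the name of a transporter they are associated with, Slc9a3r1, Slc9a3r2 and Slc4a1ap.

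Expression was measured on Affymetrix Mouse Gene 1.0 arrays in RNA of epithelial cells isolated from the small intestine of adult mice, on 15 arrays in 5 groups of n = 3. Both regions, ileum and jejunum, came from wild-type CD1 animals. Ileum was also taken from animals labelled control and from a Gata4 conditional knockin line (cKI), and jejunum from animals labelled Gata4 conditional knockout (cKO). The labels give no Cre driver, no genotype or strain for the control, cKI and cKO mice, and no jejunal control for the cKO, which is set against wild-type CD1 jejunum here. Mouse stock and genotype therefore cannot be told apart in that comparison. The same holds wherever wild-type CD1 arrays are set against control, cKI or cKO arrays below. Whether each array stands for its own animal is not stated, so the tests weigh only array-to-array spread, and precision is limited by having 3 arrays a group.

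Ion carriers of the enterocyte divide into those of the brush border, facing the lumen, and those of the basolateral membrane, facing the blood. Sodium chloride is absorbed where an apical sodium-hydrogen exchanger works beside an apical chloride-bicarbonate exchanger, and chloride is secreted in the crypts after basolateral uptake by a sodium-potassium-chloride cotransporter. Phosphate enters with sodium through apical cotransporters, in the mouse mainly in the ileum. GATA4 is a zinc finger transcription factor found in duodenal and jejunal epithelium and normally scarce in the ileum.

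Gata4 itself was examined first. On the deposited log2 scale it was at 5.99, 5.43 and 5.39 in wild-type ileum, 9.68, 9.45 and 9.47 in wild-type jejunum, 6.71, 7.22 and 6.53 in the control ileum and 8.02, 8.43 and 8.17 in the cKI ileum. On the arrays labelled cKO it was at 9.72, 9.88 and 9.93, all above the wild-type jejunum. The cKI ileum exceeded the control ileum by 1.38 ± 0.185 (limma, adjusted p = 0.00453), but the difference of the arrays labelled cKO from the wild-type jejunum was 0.31 ± 0.185 (adjusted p = 0.322). The Gata4 signal thus did not fall with the cKO label. The sources used here give neither the deleted part of the gene nor the position of the probes, so this value does not check the label, and the group is called by its label throughout. Control ileum also exceeded the wild-type ileum, by 1.22 ± 0.185 (adjusted p = 0.000284).

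Here and below, differences are log2 values of the first group minus the second, ± the standard error of the model, and adjusted p-values are those of limma, corrected by the Benjamini-Hochberg method for the 11784 genes tested. A gene was called at an adjusted p below 0.05, and tested when at least 1 group averaged above 4.91, the median of the whole table. Folds are given only where both group means exceeded that level. Array medians lay between 4.82 and 5.0. All 8 epithelial markers were tested, and their mean over an array ran from 10.84 to 11.56. No marker of endothelium, erythrocytes or nerve and glia passed the level filter. The 12 stromal markers averaged 5.24 to 5.61 in wild-type ileum, against 4.47 to 4.71 in wild-type jejunum, and 8 of the 10 tested ones were lower there. On the arrays labelled cKO they averaged 4.82 to 5.05. The 5 tested goblet cell markers averaged 10.81 to 10.92 in the wild-type ileum, 9.87 to 9.98 in the wild-type jejunum, 10.88 to 10.98 in the control ileum, 10.63 to 10.71 in the cKI ileum and 10.30 to 10.37 on the arrays labelled cKO. All 5 were lower in the wild-type jejunum than in the ileum, and 4 of the 5 were higher on the arrays labelled cKO than in the wild-type jejunum.

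Of the 50 genes, 26 passed the level filter. All 5 phosphate carriers and all 3 proteins named after a transporter were tested, with 5 of 11 anion exchangers, 5 of 9 bicarbonate carriers, 4 of 8 cation-chloride cotransporters, 3 of 7 sodium-hydrogen exchangers and 1 of 4 dicarboxylate and sulfate carriers. None of the 3 sodium-calcium exchangers was. The 24 untested genes had highest group means from 3.03 to 4.87. They include Slc12a1 and Slc12a3, cotransporters known from the kidney tubule, Slc4a9, Slc26a4 (pendrin) and Slc26a9. At the edge of the filter, Slc4a1, the chloride-bicarbonate exchanger of red cells, was tested at 4.91 and Slc12a4 was left out at 4.87. For 4 of the 26 tested genes at least 1 group mean was below the filter, so that their smallest values lie near the floor of the arrays.

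Between the wild-type regions, 11 of the 26 tested genes were called (42.3%), against 21.3% of all genes tested. In the jejunum 5 were higher, against 13.4% of all genes, and 6 were lower, against 7.91%. The arrays of the 2 regions did not overlap for 13 of the 26, against 40.3% of all genes. The median difference was 0.02 for the 26 and 0.00 for all genes. On the arrays labelled cKO, 5 of the 26 (19.2%) differed from the wild-type jejunum, against 12.8% of all genes: 3 were higher (5.17% of all genes) and 2 were lower (7.65%). None of the 26 was called between the cKI and the control ileum, where 0.764% of all genes were called. At an unadjusted p below 0.05 that comparison held 1 of the 26, against 15.3% of all genes.

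**Figure D1:**
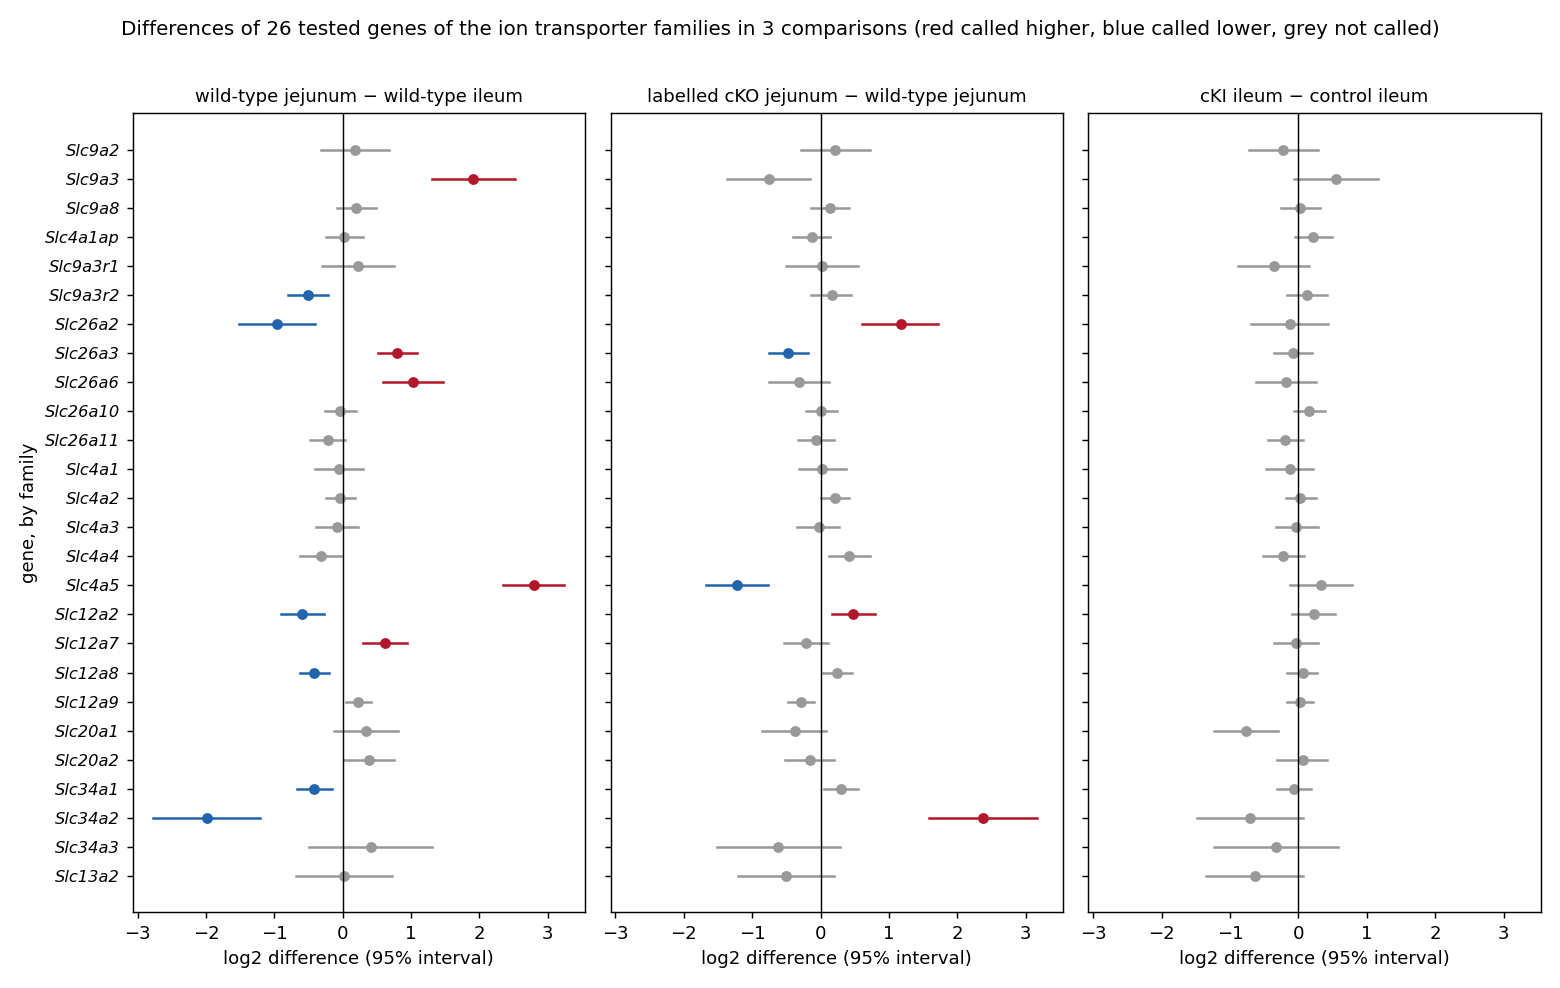
Log2 differences of the 26 tested genes, ordered by family, in wild-type jejunum against ileum, in the arrays labelled cKO against wild-type jejunum and in cKI against control ileum. Points are differences and bars are 95% intervals from limma; red marks genes called higher, blue genes called lower and grey genes not called. The first 2 panels share the wild-type jejunum arrays, and no gene is coloured in the last.

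The phosphate carriers held the gene with the largest fold that could be given among the 26. Slc34a2 encodes the sodium-phosphate cotransporter of the intestinal brush border. On the wild-type arrays it read 11.18, 10.16 and 10.95 for the ileum and 8.91, 8.83 and 8.57 for the jejunum. In the control ileum it was at 11.54, 10.87 and 10.91, in the cKI ileum at 9.85, 11.37 and 9.97, and on the arrays labelled cKO at 11.69, 10.87 and 10.88. Only the 3 arrays of the wild-type jejunum lay below 9, and they overlapped with no other group. The wild-type jejunum was 3.97-fold below the ileum (difference -1.99 ± 0.366, limma, adjusted p = 0.00102). The arrays labelled cKO were 5.19-fold above the wild-type jejunum (2.37 ± 0.366, limma, adjusted p = 0.000509), and differed from the wild-type ileum by 0.39 ± 0.366 (limma, adjusted p = 0.613). Both large differences rest on the same 3 jejunal arrays, but the second holds the cKO arrays and the first does not. In epithelium isolated from bulk tissue, fewer cells of a type and less RNA per cell cannot be told apart. Goblet and stromal markers differed in the same directions as Slc34a2 in both comparisons. Over the tested ones the median difference was -1.08 for goblet and -0.86 for stromal markers between the regions, and 0.41 and 0.40 between the arrays labelled cKO and wild-type jejunum, where 4 of 5 goblet and 1 of 10 stromal markers were called. Their part in the result was not tested.

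In the cKI ileum Slc34a2 was 0.71 below the control (difference -0.71 ± 0.366, 95% interval -1.49 to 0.07, limma, adjusted p = 0.369). Of the 3 cKI arrays, 2 lay below every control array and 1 within their range. Against the wild-type jejunum the cKI ileum was 3.08-fold higher (1.62 ± 0.366, limma, adjusted p = 0.00266).

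Slc20a1 encodes a sodium-phosphate cotransporter found in most cell types. It was at 7.51, 8.13 and 7.49 in the control ileum and at 6.73, 6.76 and 7.34 in the cKI ileum. Elsewhere it was at 7.09, 6.77 and 6.85 in wild-type ileum, 7.44, 7.53 and 6.75 in wild-type jejunum and 6.81, 6.88 and 6.88 on the arrays labelled cKO. All cKI arrays lay below all control arrays. This was the gene that reached an unadjusted p below 0.05 between cKI and control (-0.76 ± 0.219), but it did not pass after correction (limma, adjusted p = 0.131). Control ileum was itself above the wild-type ileum (0.80 ± 0.219, 1.74-fold, limma, adjusted p = 0.0138), a call lost without wild-type ileum replicate 2 (adjusted p = 0.052) or control replicate 2 (0.0681). Markers of stroma, of B and plasma cells and of T and NK cells differed in the same directions. Between cKI and control the median difference was -0.81 over the 10 tested stromal markers, -0.97 over 6 of B and plasma cells and -1.16 over 6 of T and NK cells, of which 2, 1 and 0 were called lower. Between control and wild-type ileum these medians were 0.40, 0.29 and 0.93, with 3, 1 and 1 called higher and 1 stromal marker lower. Other lists did not all follow. Between cKI and control their medians were -0.26 for goblet, -0.11 for epithelial, -0.05 for myeloid and -0.02 for Paneth cell markers. They were 0.07 for tuft cell, 0.21 for crypt and 0.36 for enteroendocrine markers. B and plasma cell markers averaged 4.88 to 6.76 in the control and 4.81 to 5.03 in the cKI ileum, T and NK cell markers 5.76 to 6.40 and 4.54 to 5.64. Their part in the result was not tested.

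Slc34a1, known as the cotransporter of the kidney tubule, had group means between 4.78 and 5.21, and was lower in the wild-type jejunum than in the ileum (-0.42 ± 0.118, limma, adjusted p = 0.0196). That call was lost without wild-type ileum replicate 3 (adjusted p = 0.0937) and without wild-type jejunum replicate 1 (0.0517) or 2 (0.105). Slc34a3 was at 4.77, 4.87 and 7.07 in the wild-type jejunum, so that 1 array set its mean. All its other arrays lay between 4.64 and 5.47, and it was called in none of the comparisons, as was Slc20a2, with group means of 7.25 to 7.63.

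**Figure D2:**
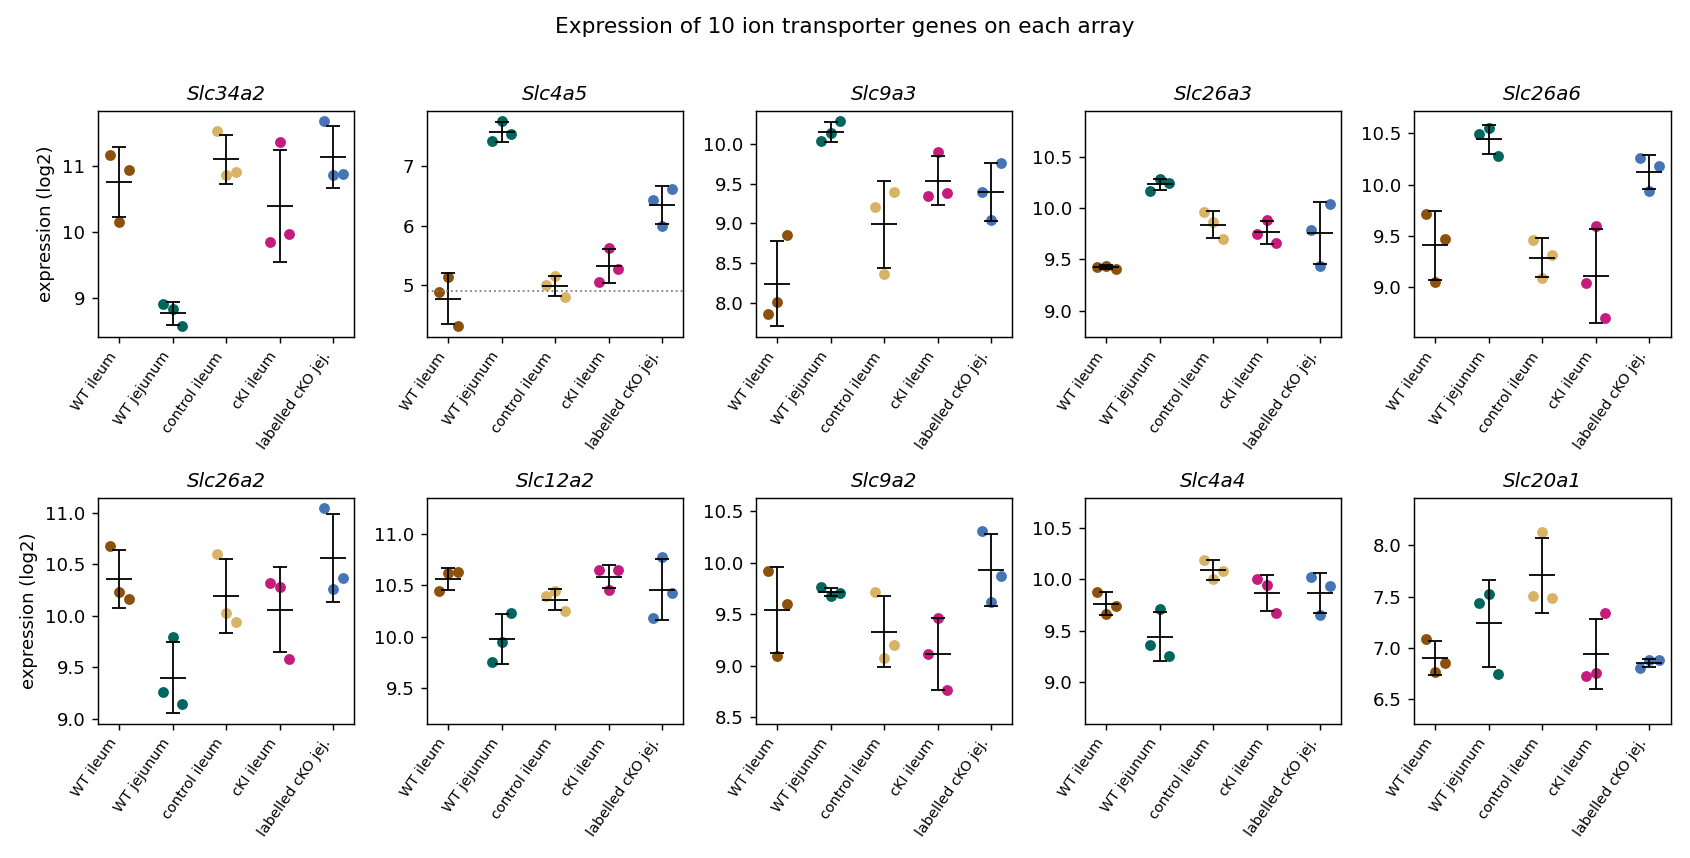
Log2 expression of 10 transporter genes on each of the 15 arrays, by group. Points are arrays, the wide line is the group mean and the bars are 1 SD (n = 3); each panel has its own axis, which does not start at 0, and the dotted line in the Slc4a5 panel marks the level filter at 4.91. Slc34a2 is lowest and Slc4a5 highest in the wild-type jejunum, with the cKO-labelled arrays above the wild-type jejunum for Slc34a2 and between the 2 wild-type regions for Slc4a5.

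Slc9a3 encodes NHE3, the main sodium-hydrogen exchanger of the brush border. It was at 7.86, 8.01 and 8.86 in wild-type ileum, against 10.04, 10.14 and 10.29 in wild-type jejunum. Control arrays read 9.21, 8.37 and 9.39, the cKI ileum at 9.34, 9.90 and 9.38, and the arrays labelled cKO at 9.39, 9.04 and 9.76. The wild-type jejunum lay above all other arrays. It exceeded the wild-type ileum 3.77-fold (1.91 ± 0.285, limma, adjusted p = 0.000174). The arrays labelled cKO were all below the wild-type jejunum, by 0.76 on average, which did not pass (-0.76 ± 0.285, limma, adjusted p = 0.0998). Of 16 alternative settings 1 called it, the fit to only the groups compared (limma, adjusted p = 0.0356). The arrays labelled cKO were above the wild-type ileum (1.15 ± 0.285, 2.22-fold, limma, adjusted p = 0.03). That last call was lost without wild-type ileum replicate 1 (adjusted p = 0.11) or replicate 2 (0.131), and without cKO replicate 1 (0.0731) or replicate 3 (0.103). The cKI ileum was 0.55 ± 0.285 above the control (95% interval -0.06 to 1.16, limma, adjusted p = 0.38). Control ileum was itself 0.75 ± 0.285 above the wild-type ileum (limma, adjusted p = 0.0638), a difference called in 4 of 16 alternative settings.

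Slc9a2 encodes NHE2, a further apical sodium-hydrogen exchanger. It was at 9.92, 9.09 and 9.60 in wild-type ileum, 9.76, 9.68 and 9.71 in wild-type jejunum and 9.72, 9.07 and 9.20 in the control ileum. The cKI ileum was at 9.11, 9.46 and 8.76 and the arrays labelled cKO at 10.31, 9.62 and 9.87. Groups overlapped between the regions, where the difference was 0.18 ± 0.235 (95% interval -0.32 to 0.68, limma, adjusted p = 0.657), and it was called in none of the comparisons. It came closest between cKI ileum and wild-type jejunum (-0.61 ± 0.235, limma, adjusted p = 0.0503), where 9 of 16 alternative settings called it, among them the replicate number as a block over all arrays (0.028). The interval leaves out a regional difference as large as that of Slc9a3. Slc9a8, which encodes NHE8, was likewise never called, with group means of 8.04 to 8.38.

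Among the proteins named after a transporter, Slc9a3r1 encodes NHERF1, a scaffold that binds NHE3 at the brush border. Its group means were 10.57 in wild-type ileum, 10.80 in wild-type jejunum, 10.16 in the control ileum, 9.80 in the cKI ileum and 10.82 on the arrays labelled cKO. Of the 7 comparisons it was called in 1, between the cKI ileum and the wild-type jejunum (-1.0 ± 0.246, limma, adjusted p = 0.00474). Slc9a3r2, the related scaffold NHERF2, was near the filter and lower in the wild-type jejunum than in the ileum (-0.51 ± 0.137, limma, adjusted p = 0.0154), a call lost on leaving out replicate 3 of either wild-type region (0.0581 for ileum, 0.0559 for jejunum). Slc4a1ap was lower in the control than in the wild-type ileum (-0.50 ± 0.127, limma, adjusted p = 0.00936).

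The anion exchangers differed in direction among themselves. Slc26a3 encodes DRA, the chloride-bicarbonate exchanger mutated in congenital chloride diarrhea. It was at 9.43, 9.44 and 9.41 in wild-type ileum, against 10.17, 10.28 and 10.24 in wild-type jejunum. The control ileum was at 9.96, 9.86 and 9.70, the cKI ileum at 9.75, 9.88 and 9.66, and the arrays labelled cKO at 9.79, 9.44 and 10.04. The wild-type jejunum was again above every other array. It exceeded the ileum 1.74-fold (0.80 ± 0.13, limma, adjusted p = 0.000381), and the arrays labelled cKO fell below it by 0.47 (-0.47 ± 0.13, limma, adjusted p = 0.0267). The control ileum was above the wild-type ileum (0.41 ± 0.13, limma, adjusted p = 0.0278), while cKI and control differed by -0.08 ± 0.13 (95% interval -0.36 to 0.20, limma, adjusted p = 0.809). The call for the arrays labelled cKO was lost in 6 of 16 alternative settings, among them the omission of any wild-type jejunum array (adjusted p = 0.0567, 0.0927 and 0.0637) or of cKO replicate 2 (0.119). The call for the control ileum was lost without any wild-type ileum array (0.0649, 0.0626 and 0.0729), without control replicate 1 (0.0957) or 2 (0.0684), after quantile normalization (0.056) and after centring on array medians (0.0649).

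Slc26a6 encodes an apical exchanger of chloride, bicarbonate and oxalate. It was at 9.71, 9.05 and 9.47 in wild-type ileum, 10.49, 10.55 and 10.28 in wild-type jejunum and 10.26, 9.94 and 10.18 on the arrays labelled cKO. The control ileum was at 9.46, 9.09 and 9.32 and the cKI ileum at 9.04, 9.60 and 8.70. Both jejunal groups lay above all ileal arrays. The wild-type jejunum exceeded the ileum 2.04-fold (1.03 ± 0.205, limma, adjusted p = 0.00192). The arrays labelled cKO were 0.32 below it (-0.32 ± 0.205, 95% interval -0.75 to 0.12, limma, adjusted p = 0.373) and 0.71 above the wild-type ileum (0.71 ± 0.205, limma, adjusted p = 0.0628), and neither difference passed. The latter was called in 2 of 16 alternative settings, after centring on array medians (limma, adjusted p = 0.0455) and without wild-type ileum replicate 1 (0.0472). The cKI ileum was 2.51-fold below the wild-type jejunum (-1.33 ± 0.205, limma, adjusted p = 0.000158).

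Slc26a2 encodes a sulfate transporter needed for the sulfation of proteoglycans. It was at 10.68, 10.23 and 10.16 in wild-type ileum, against 9.26, 9.79 and 9.14 in wild-type jejunum. Control arrays read 10.60, 10.03 and 9.94, the cKI ileum at 10.32, 10.28 and 9.58, and the arrays labelled cKO at 11.05, 10.26 and 10.37. The wild-type jejunum was lower than the ileum (-0.96 ± 0.262, 1.94-fold, limma, adjusted p = 0.0159). The arrays labelled cKO were 2.24-fold higher than the wild-type jejunum (1.17 ± 0.262, limma, adjusted p = 0.00788). The regional call was lost without wild-type ileum replicate 1 (adjusted p = 0.0748) and without wild-type jejunum replicate 1 (0.0605) or 3 (0.0639). The call for the arrays labelled cKO held in 16 of 16 settings. Goblet and stromal markers differed in the same directions as Slc26a2 in both comparisons, as given above for Slc34a2. Their part in the result was not tested. Slc26a10 and Slc26a11 were called in none of the comparisons.

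The bicarbonate carriers held a further gene with a large regional difference, Slc4a5, which encodes the sodium-bicarbonate cotransporter NBCe2. It was at 4.89, 5.13 and 4.31 in wild-type ileum, 5.0, 5.15 and 4.81 in the control ileum and 5.06, 5.63 and 5.27 in the cKI ileum. In the wild-type jejunum it was at 7.41, 7.75 and 7.53, and on the arrays labelled cKO at 6.43, 6.0 and 6.61. Both jejunal groups lay above all ileal arrays, and the arrays labelled cKO lay below all wild-type jejunal ones. The regional difference was 2.79 ± 0.211 (limma, adjusted p = 3.2e-07), with no fold given because the wild-type ileum was below the filter. The arrays labelled cKO were 2.32-fold below the wild-type jejunum (-1.22 ± 0.211, limma, adjusted p = 0.0013) and above the wild-type ileum (1.57 ± 0.211, limma, adjusted p = 7e-04). The cKI ileum was 4.74-fold below the wild-type jejunum (-2.24 ± 0.211, limma, adjusted p = 2.32e-06) and 0.33 ± 0.211 above the control (95% interval -0.12 to 0.78, limma, adjusted p = 0.476).

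Slc4a4 encodes NBCe1, the basolateral sodium-bicarbonate cotransporter. It was at 9.88, 9.66 and 9.74 in wild-type ileum, 9.36, 9.71 and 9.25 in wild-type jejunum and 10.19, 10 and 10.08 in the control ileum. The cKI ileum was at 10, 9.94 and 9.67 and the arrays labelled cKO at 10.02, 9.65 and 9.93. Jejunal and ileal arrays overlapped (-0.32 ± 0.139, limma, adjusted p = 0.128), as did wild-type jejunum and the arrays labelled cKO (0.42 ± 0.139, limma, adjusted p = 0.0594). The cKI ileum exceeded the wild-type jejunum (0.43 ± 0.139, limma, adjusted p = 0.0219), a call lost without wild-type jejunum replicate 1 (0.0748) or 3 (0.0961) and without cKI replicate 1 (0.0871) or 2 (0.0645). Quantile normalization of the arrays brought the first difference to an adjusted p of 0.0287 and the second to 0.0218. Slc4a1, Slc4a2 (the basolateral exchanger AE2) and Slc4a3 were called in none of the comparisons. Slc4a2 varied little, with group means of 7.57 to 7.78.

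Slc12a2 encodes NKCC1, the basolateral cotransporter that loads secretory cells with chloride. It was at 10.44, 10.62 and 10.63 in wild-type ileum, 9.75, 9.95 and 10.23 in wild-type jejunum and 10.18, 10.77 and 10.42 on the arrays labelled cKO. Control arrays were at 10.39, 10.44 and 10.25 and the cKI ileum at 10.65, 10.45 and 10.65. The wild-type jejunum lay below the ileum without overlap (-0.59 ± 0.149, 1.5-fold, limma, adjusted p = 0.0103). It was also below the arrays labelled cKO, with overlap (0.48 ± 0.149, 1.39-fold, limma, adjusted p = 0.0466). The latter call was lost in 7 of 16 settings, among them the omission of wild-type jejunum replicate 1 (adjusted p = 0.199) or 2 (0.125) and of cKO replicate 2 (0.199) or 3 (0.0708). The regional call was lost without wild-type jejunum replicate 1 (0.058). Crypt markers, 5 in number, included 1 that was lower in the wild-type jejunum than in the ileum and none called for the arrays labelled cKO. Goblet and stromal markers differed in the same directions as Slc12a2 in both comparisons. The part of these markers in the result was not tested.

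Slc12a7 encodes the potassium-chloride cotransporter KCC4 and was higher in the wild-type jejunum than in the ileum (0.62 ± 0.149, 1.54-fold, limma, adjusted p = 0.00724). Slc12a8 was lower there (-0.42 ± 0.101, 1.34-fold, limma, adjusted p = 0.00722). Both regional calls held in 16 of 16 settings. On the arrays labelled cKO, Slc12a7 differed from the wild-type jejunum by -0.21 ± 0.149 (limma, adjusted p = 0.413), Slc12a8 by 0.24 ± 0.101 (0.14) and Slc12a9 by -0.28 ± 0.0883 (0.051). Slc13a2, which encodes the apical sodium-dicarboxylate cotransporter that takes up succinate and citrate, was called in none of the comparisons. Its 3 cKI values, 8.93, 9.59 and 8.18, spanned 1.41, and its cKI minus control difference was -0.64 ± 0.33 (limma, adjusted p = 0.368).

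**Figure D3:**
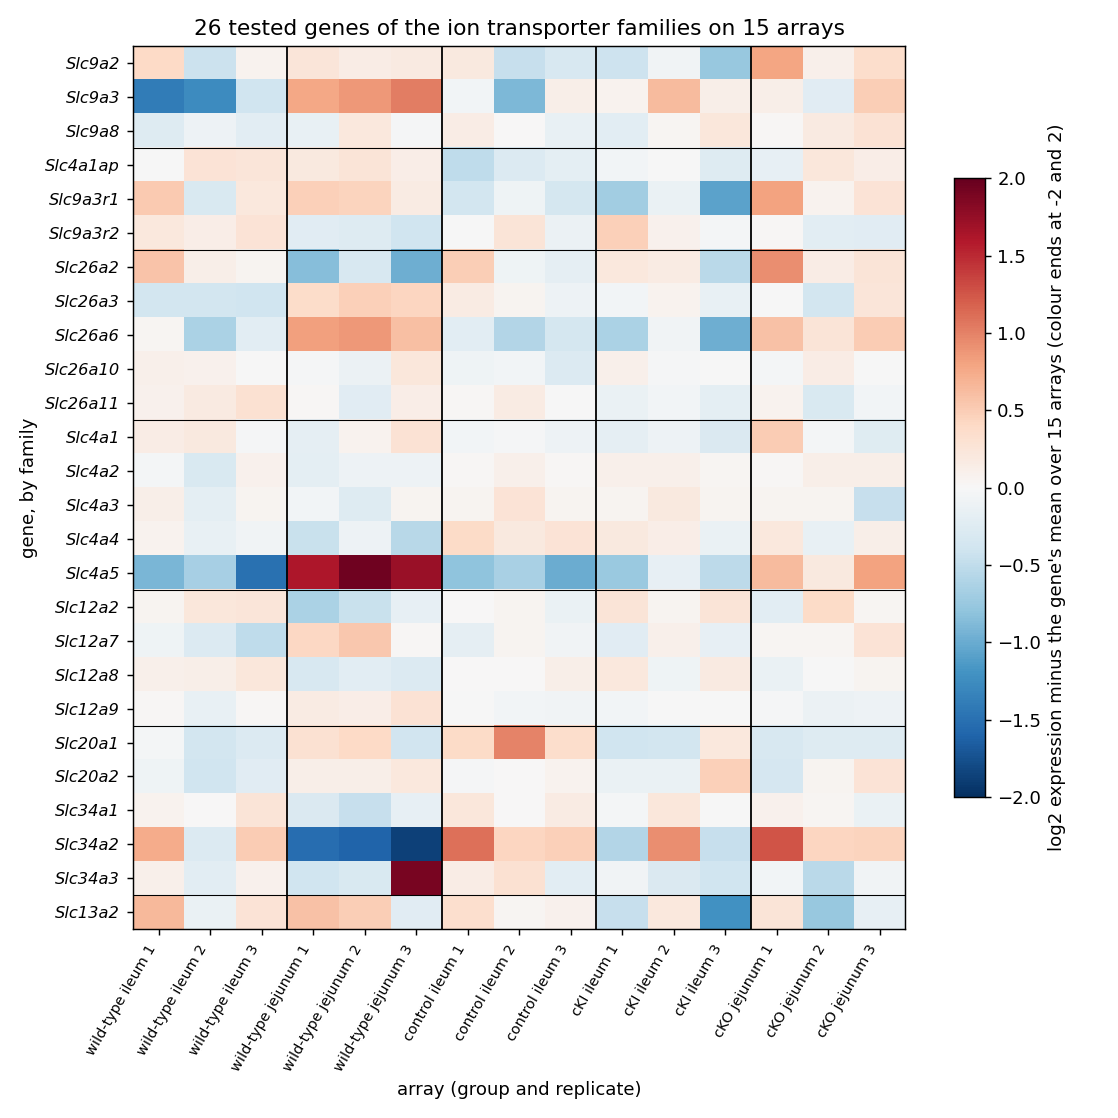
Log2 expression of the 26 tested genes (rows, by family) on the 15 arrays (columns, by group and replicate), each minus the gene's mean over all arrays; colours end at -2 and 2. Slc34a2, Slc4a5, Slc9a3 and Slc26a6 separate the wild-type jejunum from the wild-type ileum on every array, and Slc34a3 stands out on wild-type jejunum replicate 3 alone.

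The comparison of cKI with control ileum shares no array with that of the wild-type regions, so the values may be set side by side. Of the 11 genes called between the regions, 5 (45.5%) had a cKI minus control difference of the same sign as jejunum minus ileum. Over all genes called between the regions it was 1717 of 2507 (68.5%). The 5 were Slc4a5 (0.33), Slc9a3 (0.55), Slc34a2 (-0.71), Slc26a2 (-0.13) and Slc34a1 (-0.07), and each sign is that of an uncalled difference. That of Slc26a2 turned positive in 3 of 16 settings. Arrays of cKI and control did not overlap for 4 of the 26 genes, against 20.9% of all genes: Slc20a1 and Slc26a11 were lower in cKI, and Slc12a2 and Slc26a10 higher. In the comparison of the arrays labelled cKO with the wild-type jejunum it was 11 of 26, against 27.2%.

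The cKI ileum differed from the wild-type jejunum in 11 of the 26 genes (42.3%), near the 41.8% of all genes, with 6 higher (25.5% of all genes) and 5 lower (16.3%). The arrays labelled cKO differed from the wild-type ileum in 2, Slc4a5 and Slc9a3, both higher, against 5.1% of all genes in either direction and 3.26% higher. The control and the wild-type ileum, both without a named Gata4 change, differed in 3 of the 26, Slc20a1, Slc26a3 and Slc4a1ap, against 27.9% of all genes.

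Whether the cKI minus control difference and the wild-type jejunum minus labelled cKO difference were unequal was tested directly, as their difference. None of the 26 genes was called, against 2.94% of all genes, although 7 reached an unadjusted p below 0.05 (16.7% of all genes). The smallest adjusted p values were those of Slc20a1 (-1.15 ± 0.309, 0.0627), Slc12a2 (0.70 ± 0.21, 0.0945) and Slc34a2 (1.66 ± 0.517, 0.108). For Slc34a2 the 95% interval of this difference ran from 0.56 to 2.77, the direction of a smaller change in the cKI ileum than on the arrays labelled cKO.

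The transporters work with channels, pumps, scaffolds and regulators, of which a list of 49 was used. Of these 46 were named in the annotation and 41 tested. Between the regions 16 were higher in the wild-type jejunum, 8 were lower and 17 did not pass, so that 58.5% were called against 21.3% of all genes. The 4 with the smallest p were Prkg2, the cyclic GMP-dependent kinase that acts on apical transport (1.62 ± 0.135, 3.08-fold, limma, adjusted p = 7.46e-07), Ano6, a calcium-activated channel and lipid scramblase (2.05 ± 0.202, 4.14-fold, 3.7e-06), Car2, the cytosolic carbonic anhydrase that supplies bicarbonate and protons (3.71 ± 0.387, 6.61e-06), and Guca2a. Guca2a, which encodes the peptide guanylin, was lower (-1.60 ± 0.172, 3.04-fold, limma, adjusted p = 8.56e-06).

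On the arrays labelled cKO, 7 of the 41 were higher than in the wild-type jejunum and 7 were lower (34.1% called, against 12.8%). Car2 fell to 4.64 from 8.28 (difference -3.64 ± 0.387, limma, adjusted p = 2.06e-05), which is below the filter, so that no fold is given. The water channel gene Aqp8 also fell (-1.78 ± 0.195, 2.65e-05), as did Prkg2 (-1.02 ± 0.135, 2.03-fold, 0.000134), and Guca2a rose (1.42 ± 0.172, 2.67-fold, 6.79e-05). Against the wild-type ileum 3 were higher and 1 was lower (9.76% called, against 5.1%): Ano6 (1.33 ± 0.202, limma, adjusted p = 0.00157), Guca2b, which encodes uroguanylin (1.20 ± 0.237, 0.00893), Prkg2 (0.60 ± 0.135, 0.0181) and Scnn1a, a subunit of the epithelial sodium channel (-0.82 ± 0.19, 0.022). In the cKI ileum 1 of the 41 was called (2.44%, against 0.764%), Clca1, a secreted protein of goblet cells that regulates chloride channels (-0.74 ± 0.118, 1.67-fold lower than control, limma, adjusted p = 0.0141). The 5 goblet markers held no call in that comparison and had a median difference of -0.26, and their part in the result was not tested. Guca2a (-0.73 ± 0.172, 0.07), Ano6 (0.73 ± 0.202, 0.117) and Atp2b1, a calcium pump (-0.49 ± 0.16, 0.181), came next and did not pass.

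The control ileum differed from the wild-type ileum in 11 of the 41 (26.8%, near the 27.9% of all genes), with 7 higher and 4 lower. By smallest p they were Ano6 (0.94 ± 0.202, limma, adjusted p = 0.0033), the kinase gene Oxsr1, which acts on cation-chloride cotransporters (-0.42 ± 0.0965, 0.00546), Ahcyl1, which encodes the NBCe1 and NHE3 regulator IRBIT (-0.47 ± 0.11, 0.00574), and Gucy2c, the receptor of guanylin (-0.55 ± 0.137, 0.00811). The cKI ileum differed from the wild-type jejunum in 25 of the 41 (61%, against 41.8%), with 9 higher and 16 lower. Of these Ahcyl1 (-1.25 ± 0.11, limma, adjusted p = 1.24e-06), Car2 (-3.84 ± 0.387, 4.43e-06) and Prkg2 (-1.32 ± 0.135, 4.93e-06) were lower. Fxyd3, a small protein that modulates the sodium pump, was higher (1.74 ± 0.174, 4.14e-06).

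**Figure D4:**
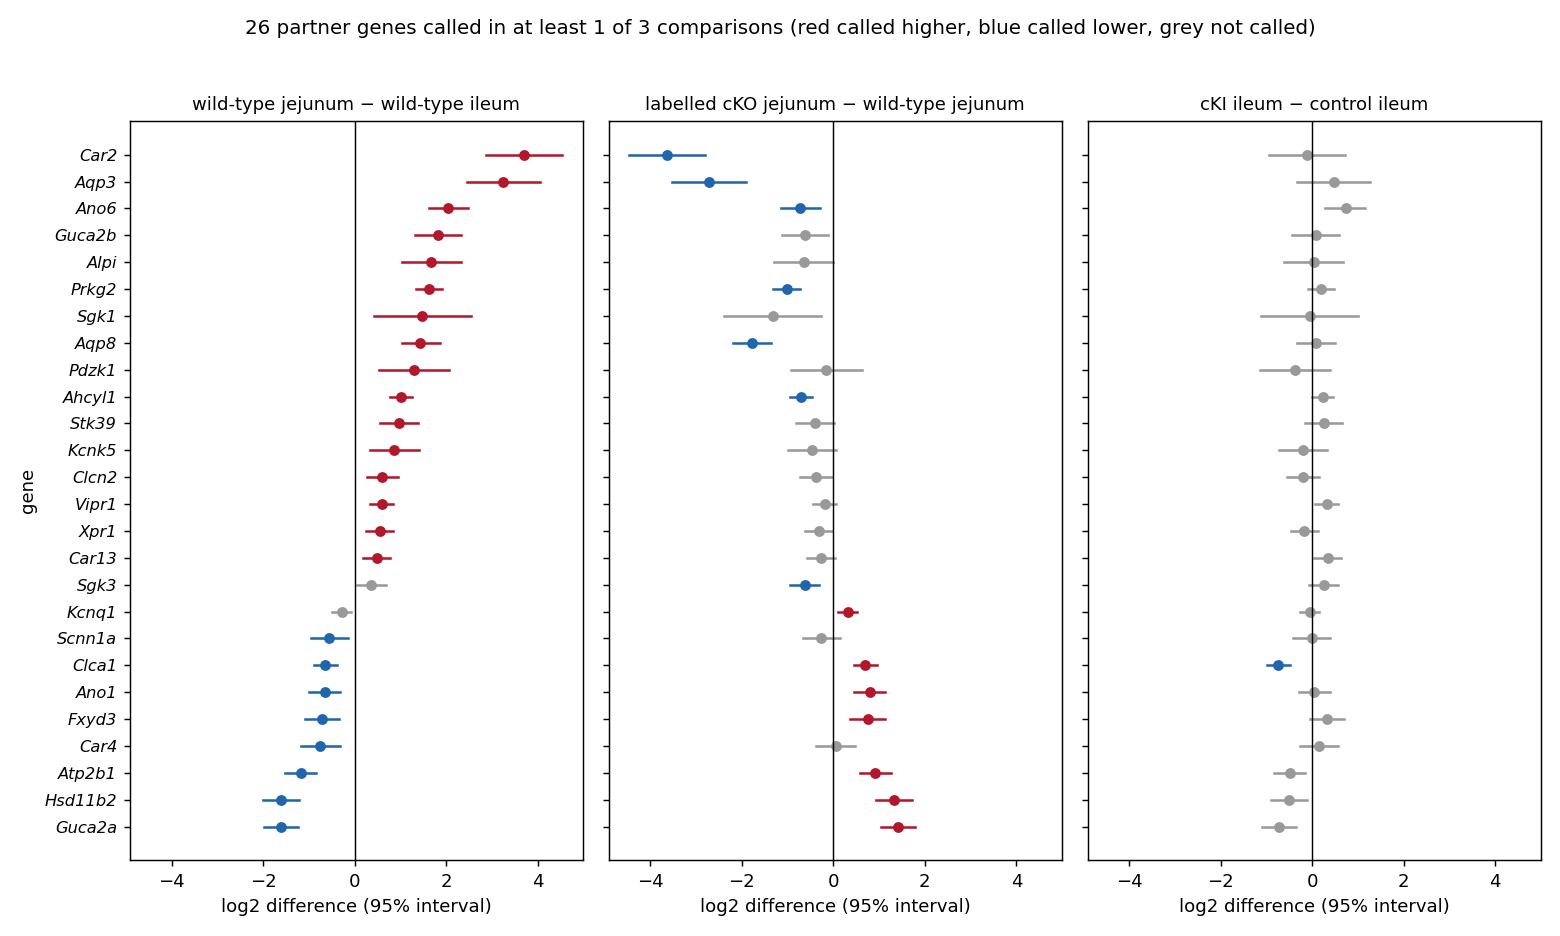
Log2 differences with 95% intervals from limma for the 26 of 41 tested channel, pump, scaffold and regulator genes that were called in at least 1 of 3 comparisons, ordered by the regional difference; red marks genes called higher, blue genes called lower and grey genes not called. Car2 differs by 3.71 between the wild-type regions and by -3.64 between the arrays labelled cKO and the wild-type jejunum, 2 comparisons that share the wild-type jejunum arrays, and in the last panel 1 gene, Clca1, is coloured.

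Promoters were read from RefSeq (GRCm38.p6) for 3 of the 5 genes called between the arrays labelled cKO and wild-type jejunum, to show the sequence just before the start of these transcripts. Each run is the 250 bases before the annotated start, 5′ to 3′ on the gene's strand, which is the plus strand in all 3: Slc34a2 at chr5:53049103-53049352, Slc4a5 at chr6:83237125-83237374 and Slc26a3 at chr12:31437969-31438218. Capitals mark the HNF1 motif letters GTTAAT.
Slc34a2: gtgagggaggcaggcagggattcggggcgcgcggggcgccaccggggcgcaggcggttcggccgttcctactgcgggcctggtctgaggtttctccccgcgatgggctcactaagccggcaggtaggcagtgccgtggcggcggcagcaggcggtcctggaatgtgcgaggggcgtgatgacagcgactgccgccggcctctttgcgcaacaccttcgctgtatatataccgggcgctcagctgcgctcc
Slc4a5: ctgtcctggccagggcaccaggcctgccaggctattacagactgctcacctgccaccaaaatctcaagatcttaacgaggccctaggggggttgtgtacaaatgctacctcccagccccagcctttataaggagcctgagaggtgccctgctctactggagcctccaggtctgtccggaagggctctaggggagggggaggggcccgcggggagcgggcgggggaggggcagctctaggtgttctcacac
Slc26a3: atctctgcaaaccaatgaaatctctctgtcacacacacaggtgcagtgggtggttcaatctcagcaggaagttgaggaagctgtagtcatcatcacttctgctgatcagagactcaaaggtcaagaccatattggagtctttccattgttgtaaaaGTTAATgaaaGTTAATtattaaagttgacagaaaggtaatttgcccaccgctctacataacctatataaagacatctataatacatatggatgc
The letters searched, on both strands, were GATA between a leading A or T and a trailing A or G for GATA factors, GTTAAT for HNF1 and TTTATG for CDX. None was found in the windows of Slc34a2 and Slc4a5, and GTTAAT stood 2 times in that of Slc26a3, at -94 to -89 and -84 to -79 from the start. Among all 32851 promoter windows of that length, 26.5% held a GATA motif, 6.43% the HNF1 letters and 10.8% the CDX letters. Of the 20 tested genes with a window in the table, 3 held a GATA motif (Slc12a8, Slc26a10 and Slc9a3r2), 3 the HNF1 letters (Slc12a8, Slc26a3 and Slc34a1) and 1 the CDX letters (Slc12a8). Some of these genes have several windows. Counted by window, the unit of the shares above, 5 of their 27 windows held a GATA motif, 3 the HNF1 letters and 1 the CDX letters. Such a match is a description of the letters and not of binding.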

How the data were processed

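The data were 15 arrays, 3 in each of 5 groups taken from the sample titles. The deposited log2 values, 1 for each of 35556 transcript clusters, were made by the authors in Partek, per the submitters' processing notes. The version, background correction, normalization and summarization are not given in the sources used here, and the log2 scale was read from the range of the values.

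Genes were named through the platform annotation: 21789 clusters had 1 symbol, 1621 several and 12146 none. The cluster with the highest mean stood for each of the 19938 genes. A gene was tested when its highest group mean exceeded the median of the table, 4.91, which left 11784. Group means were estimated jointly from the 15 arrays by limma 3.58.1 under R 4.3.3 (eBayes, 10 residual degrees of freedom). Two-sided p-values were adjusted by the Benjamini-Hochberg method within each of 7 comparisons. The steps were tested on simulated data.

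Values on every array are given for 8 transporters fixed by name and for members called at least 2-fold in the regional, cKI or cKO comparison. Of the list of 49 partner genes, up to 4 per comparison were named, by smallest p. The members and lists were chosen with earlier results of these data known. Arrays of equal replicate number were correlated after removal of group means. The correlations were 0.334, 0.216 and 0.161 for the wild-type regions and 0.128, 0.177 and 0.258 for cKI and control. For the arrays labelled cKO and wild-type jejunum they were 0.185, -0.0247 and -0.0732. By a limit of 0.1 the numbers passed as pairs in the first 2 comparisons, a check on the data and not on the labels. The tests reported above did not pair the arrays, and replicate blocks were fitted only as alternatives. Alternatives were quantile normalization, centring on array medians, other level filters, the mean of all rows of a gene, array weights, an intensity trend, replicate blocks, a fit to the groups compared and leaving out each array.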

Additional observations from a re-analysis of the deposited data

Results flagged for a closer look

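No gene of the 8 transporter families met a criterion for a closer look. Among the partner genes, 5 had a cKI minus control difference unlike the wild-type jejunum minus labelled cKO difference, by the test of that difference in limma over all genes tested. They were Car2 (-3.74 ± 0.548, adjusted p = 0.00199), Aqp8 (-1.69 ± 0.275, 0.00412), Prkg2 (-0.84 ± 0.19, 0.0282), Fxyd3 (1.07 ± 0.246, 0.0299) and Aqp3 (-2.24 ± 0.53, 0.0335). On the arrays labelled cKO, Car2 and Aqp8 were below the level filter. Aqp3, a water and glycerol channel, fell on the arrays labelled cKO by 2.72 (-2.72 ± 0.375, limma, adjusted p = 2e-04) and differed between cKI and control by 0.47 ± 0.375 (0.566). The Gata4 signal itself did not fall on the arrays labelled cKO. Groups of 3 arrays were not tested for outlying arrays.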

How the results depend on the processing

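The 10 transporter genes whose values on every array are given above were followed under the alternatives, as 1180 values of 70 differences. Of these values, 1082 kept their direction and side of the threshold, 44 gained a call, 37 lost one and 17 changed sign. None of the 17 was in a called difference. The other tested genes of the 8 families are not in these numbers. The count of called genes of the 8 families went from 11 to between 8 and 11 for the wild-type regions when arrays were left out in turn, and from 0 to between 0 and 1 for cKI against control. The 1 was Slc9a9 (-0.84, limma, adjusted p = 0.0334), which passed the level filter only without control ileum replicate 1. That was its lowest control array (4.03, against 4.75 and 5.12), so the omission both let it be tested and raised its control mean. Its cKI values, 4.03, 4.08 and 4.16, were under the filter. The count of called genes went from 5 to between 3 (without wild-type jejunum replicate 1) and 6 for the arrays labelled cKO against wild-type jejunum. For the control against the wild-type ileum it went from 3 to between 1 (without wild-type ileum replicate 2) and 3. The count went from 2 to between 1 and 3 for the arrays labelled cKO against the wild-type ileum, from 11 to between 8 and 11 for cKI against wild-type jejunum, and from 0 to between 0 and 1 for the direct test of the cKI and cKO differences.

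With array weights these counts were 1 (Slc20a1, -0.76, adjusted p = 0.0246) for cKI against control, 6 for control against wild-type ileum, 1 for cKO-labelled arrays against wild-type ileum, 18 for cKI against wild-type jejunum and 3 for the direct test. A fit to only the groups compared gave 1 for cKO-labelled arrays against wild-type ileum. A replicate block within the wild-type arrays and within the control and cKI arrays, with none for cKO, kept 11 regional calls and 0 cKI calls, the comparisons whose numbers passed the pairing check, and left 3 for the cKO-labelled arrays, without Slc12a2 (0.0683) and Slc26a3 (0.0587). A block over all arrays kept 5 there. The causes were not tested.

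Among all genes tested, array weights raised the count from 2507 to 3967 for the regions, from 90 to 766 for cKI against control and from 346 to 819 for the direct test. Without a level filter the cKI count was 52. A fit to only the groups compared gave 19 for cKI, 979 for the cKO-labelled arrays against jejunum in place of 1510, and 299 against ileum in place of 601. Leaving out arrays gave 1813 to 2377 regional genes, 20 to 192 for cKI, 990 to 1557 and 283 to 592 for the cKO-labelled arrays against jejunum and ileum, 2425 to 2837 (from 3290) for control, 3880 to 4631 (from 4924) for cKI against jejunum and 177 to 575 for the direct test. Quantile normalization lowered the share of higher genes among those called from 62.8% to 52% for the regions and from 69.1% to 47.9% for control against wild-type ileum, and raised it from 40.3% to 51.2% for the cKO-labelled arrays against jejunum.

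Sign changes were not limited to the 10 genes followed. The uncalled regional differences of Slc34a3 and Slc13a2, for example, ran from -0.34 to 0.81 and from -0.18 to 0.27 over the alternatives. Among the 10, the signs that changed were all of uncalled differences. Slc26a2 between cKI and control (-0.13) was 0.10 with array weights and -0.26 to 0.11 with arrays left out. In the direct test Slc9a2 (-0.01) was 0.03 after quantile normalization, 0.06 after centring and -0.19 to 0.19 with arrays left out. With arrays left out, the ranges were -0.04 to 0.37 for Slc9a2 between the regions, -0.42 to 0.03 for Slc26a6 in cKI, and -0.30 to 0.03 for Slc26a6 and -0.02 to 0.39 for Slc4a5 in control against wild-type ileum. For cKO-labelled arrays against wild-type ileum they were -0.26 to 0.03 for Slc12a2, -0.11 to 0.04 for Slc20a1 and -0.04 to 0.37 for Slc26a2. Signal near the floor of the arrays limits Slc4a5, Slc34a1, Slc9a3r2 and Slc4a1.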

Other observations

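Within groups, several apical transporter genes and general brush border genes shared the array on which they were highest. The genes named were chosen after their values were seen. Slc34a2, Slc26a6, Slc9a2, Slc13a2 and Slc9a3r1 were each highest on wild-type ileum replicate 1 and lowest on replicate 2, highest on cKI replicate 2, and highest on cKO-labelled replicate 1 and lowest on replicate 2. The same held for the brush border genes Alpi, Vil1, Ezr and Pdzk1, which are not among the transporters. It did not hold in full for Slc9a3 and Slc26a3, which shared only the highest cKI array and the lowest cKO-labelled array. Slc9a3 was lowest on wild-type ileum replicate 1 (7.86, 8.01 and 8.86), and Slc26a3 was almost level there (9.43, 9.44 and 9.41). Both were highest on cKO-labelled replicate 3, at 9.76 and 10.04, and lowest on replicate 2. Alpi, for example, was at 10.90, 9.75 and 10.58 in the wild-type ileum and at 11.92, 10.92 and 11.49 on the cKO-labelled arrays. The crypt and proliferation genes Olfm4, Mki67 and Top2a were lowest on replicate 1 and highest on replicate 2 of the wild-type ileum and of the cKO-labelled arrays, with Top2a at 8.65, 9.23 and 8.98 and at 8.38, 9.19 and 8.89. The other crypt markers, Lgr5 and Ascl2, did not keep this order. Lgr5 kept it on the cKO-labelled arrays but was highest on replicate 3 of the wild-type ileum (6.89, 7.21 and 7.32). Ascl2 was lowest on replicate 3 of the wild-type ileum (5.17, 5.31 and 5.09). On the cKO-labelled arrays it was lowest on replicate 2 and highest on replicate 3 (5.28, 5.02 and 5.53). Of the 26 tested genes, 14 were highest on wild-type ileum replicate 1, 15 on cKI replicate 2 and 14 on cKO-labelled replicate 1, against 33.8%, 33.6% and 33.4% of all genes tested. These 3 arrays were picked because the genes named peaked there, and the transporters named are among the 26. The counts are therefore a description and not a test.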
